A study of Mus musculus with 12 samples.

Results

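The cytosolic ribosome, the machine that reads mRNA into protein, is built from ribosomal RNA and from the products of the ribosomal protein genes. These genes were examined in NE-4C cells, a neural progenitor line from embryonic mouse brain that lacks p53, by mRNA-Seq of 12 cultures. Wildtype (WT) cells and 1 Faf2 knockout (KO) line, in which CRISPR/Cas9 had removed an internal exon of Faf2, were each sequenced without induction (NO) or after all-trans retinoic acid (RA), which induces the cells to become neurons. RA was given at 1 µM for 24 h, and those cells were collected on day 3. The NO cells stand at day 0, and no group was kept to day 3 without RA. A difference with RA therefore cannot be told apart from one of the days in culture. Each of the 4 groups (WT NO, WT RA, KO NO and KO RA) holds 3 cultures from independent passages, and the KO is a single line, so a difference between KO and WT cannot be told apart from a difference between this line and its parent.

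Members were chosen by name. They are the genes named Rpl or Rps with a number, with or without a trailing letter and digit, plus Rplp0, Rplp1, Rplp2, Rpsa, Rack1 and Fau, and rows named as pseudogenes (-ps) were left out. The rule took 91 of 57010 genes, 53 named for the large (60S) subunit and 38 for the small (40S) subunit. Of these, 86 are annotated as protein coding. Rps3a2, Rps12l1 and Rpl6l are annotated as processed pseudogenes, and Rps3a3 and Rpl32l as transcribed processed pseudogenes. They match the rule by name and are kept in all counts, shares and medians of the members. The rule itself uses names alone, but it was set with earlier results of these data known. Of the 91, 88 had enough counts to be tested, and Rpl3l, Rpl10l and Rpl39l did not.

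Ribosomal protein genes are among the most strongly expressed genes of a growing cell and are needed in equal numbers, since each subunit takes a single copy of nearly every protein. Most of their mRNAs begin with a run of pyrimidines called a 5′ terminal oligopyrimidine (TOP) tract, through which mTOR signalling controls their translation. A few members have a second gene, or paralog, that encodes a similar protein and is used in particular tissues.

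The start sites of several members are printed to show this tract. RefSeq promoters of mouse build GRCm38.p6 matched 66 of the 91 members by symbol. A run of at least 8 bases that are all C or T, read on the strand of the gene and reaching within 3 bases of the annotated start on either side, was present in 24 of them (36.36%), against 8.71% of the 27025 symbols in the table. The windows hold 15 bases before the start and 15 from it on, and the capitals mark the longest run of C and T at the start. The first 7 have such a run. Rps27l and Rpl7l1, paralogs whose levels are described with their partners, have none that meets this definition. In the Rps27l window a longer run of C and T than the marked one ends just outside the 3 bases before the start.
Rpl22l1, chr3:28805493-28805522 (forward strand): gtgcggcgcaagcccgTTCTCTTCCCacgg
Rpl13a, chr7:45128731-45128760 (reverse strand): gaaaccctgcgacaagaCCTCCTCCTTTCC
Rps10, chr17:27635230-27635259 (reverse strand): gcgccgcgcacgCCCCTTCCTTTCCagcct
Rps27, chr3:90213634-90213663 (reverse strand): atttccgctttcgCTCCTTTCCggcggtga
Rps6, chr4:86857353-86857382 (reverse strand): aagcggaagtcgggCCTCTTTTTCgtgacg
Rps24, chr14:24490663-24490692 (forward strand): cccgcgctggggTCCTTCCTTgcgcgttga
Rpl35, chr2:39005117-39005146 (reverse strand): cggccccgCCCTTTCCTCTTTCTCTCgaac
Rps27l, chr9:66946071-66946100 (forward strand): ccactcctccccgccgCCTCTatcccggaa
Rpl7l1, chr17:46782642-46782671 (reverse strand): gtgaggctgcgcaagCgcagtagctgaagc
Such a match describes letters in the window, and a missing run says only that the annotated start has none.

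The values are the estimated counts per gene, corrected for gene length, with library totals of 17370049 to 30738694. Levels are given as CPM, the counts scaled to a common library size, after TMM scaling, a factor per library that centres most genes between libraries, and because of the length correction they can be compared between genes. KO RA replicate 3 stood apart from its group: its TMM factor was 0.394 against 0.872 to 1.28 in the other 11 libraries, its mitochondrially encoded genes held 23.5% of its counts against 9.10% to 17.7%, and 92.3% and 91.5% of genes differed beyond counting noise from KO RA replicates 1 and 2, against 42.7% to 72.5% for every other pair within a group. The counts of calls and the medians over all tested members are therefore given with all 12 libraries and with 11. Fold changes of single genes come from the fit of 11 libraries unless 12 are named. Tests of paralog ratios use 12 libraries unless 11 are named or KO RA replicate 3 is said to be left out. The shares of genes beyond counting noise treat the scaled counts as reads and are approximate. Faf2 was at 50.0, 38.8 and 36.0 CPM in WT NO and at 21.0, 21.7 and 25.4 CPM in KO NO, but at 36.1, 34.3 and 18.7 CPM in KO RA against 35.1, 37.8 and 49.0 CPM in WT RA. Exons outside the deletion can still be counted, and their part in these levels was not tested. The log2 fold change of Faf2 was −0.87 for KO NO against WT NO (adjusted p = 0.179) and −0.45 for KO RA against WT RA (adjusted p = 0.395) with 12 libraries, and −0.86 (adjusted p = 0.0111) and −0.21 (adjusted p = 0.489) with 11. For KO RA against KO NO it was 0.39 (adjusted p = 0.377) with 12 libraries and 0.62 (adjusted p = 0.0382) with 11. Adjusted p-values come from the quasi-likelihood test of edgeR and were corrected by the Benjamini-Hochberg method over every gene tested, 16502 with 12 libraries and 17327 with 11. Of the 5 neural progenitor markers, all passed the filter, and their summed level was 253 to 300 CPM in WT NO, 273 to 313 CPM in WT RA, 255 to 289 CPM in KO NO and 169 to 324 CPM in KO RA.

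The ribosomal protein genes took between 17.2% and 28.0% of all counts. Their share was 18.2%, 19.4% and 21.1% in WT NO and rose to 26.0%, 24.1% and 24.0% in WT RA, so that the groups did not overlap. In KO NO it was 19.9%, 20.3% and 17.2%. In KO RA it was 18.9% and 19.1% in replicates 1 and 2, within the KO NO range, and 28.0% in replicate 3. WT RA exceeded WT NO by 5.13 percentage points (24.7% ± 1.15 against 19.6% ± 1.47, SD, n = 3), with p = 0.1 in the two-sided exact permutation test, which is the smallest p that 3 against 3 libraries allow. With all libraries KO RA differed from WT RA by −2.70 points (exact permutation p = 0.4) and from KO NO by 2.87 points (exact permutation p = 0.6). KO RA without replicate 3 differed from WT RA by −5.71 points (exact permutation p = 0.1, again the smallest possible) and from KO NO by −0.139 points (exact permutation p = 1.0). With the mitochondrially encoded genes left out of the total, WT cells had means of 22.1% without and 29.2% with RA, while KO NO had 21.4% and KO RA had 26.7%, or 21.7% without replicate 3. In bulk RNA, fewer cells with much ribosomal protein mRNA and less of it per cell cannot be told apart.

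**Figure D1:**
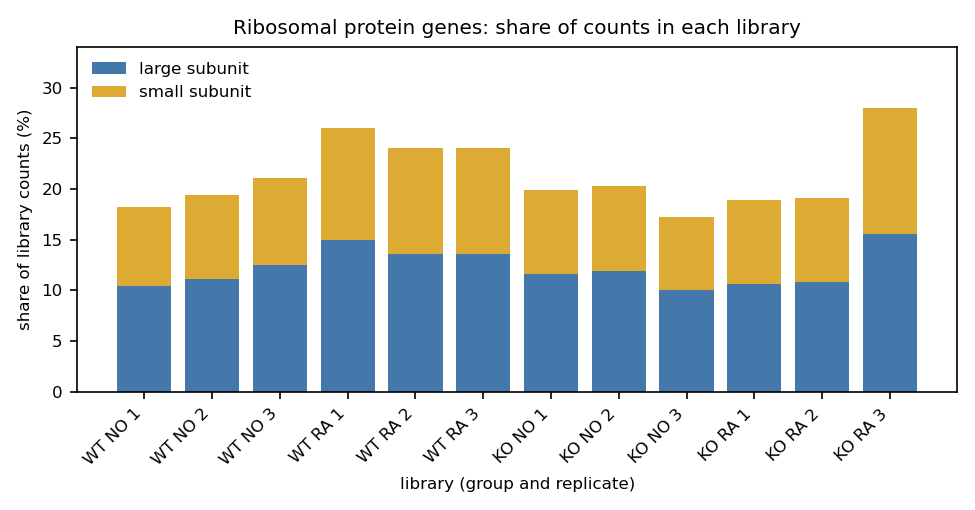
Share of each library's counts (%) held by the 53 large and 38 small subunit genes, 1 stacked bar per library and no error bar. The 3 WT RA bars reach 24.0% to 26.0%, above every other bar except KO RA replicate 3 at 28.0%.

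The balance between the subunits moved little. Small subunit genes held 40.9% to 43.7% of the ribosomal protein counts in the 11 libraries and 44.7% in KO RA replicate 3. Levels of single members differed far more than those of the subunits. The highest member was Rplp1 (ENSMUSG00000007892, chromosome 9, 61820557 to 61821872), which encodes an acidic protein of the stalk that recruits elongation factors, at a mean of 16569 CPM over the 12 libraries and 11876 CPM over 11. Rps24 was next over 12 at 8327 CPM, and Rpl23a over 11 at 6327 CPM. The lowest tested members over the 12 libraries were Rps4l at 0.585 CPM, Rpl32l at 1.74 CPM and Rpl6l at 8.41 CPM, all single-exon copies of other members. The group means of the level relative to the other members, which leaves out the scaling between libraries, differed most for Rpl22l1, by 1.74 on the log2 scale, then for Rps2 by 1.29 and Rpl32l by 1.17. Without KO RA replicate 3 the range was 1.74 for Rpl22l1, 1.02 for Rpl32l, 0.96 for Rps27l and 0.47 for Rps2.

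With TMM scaling, WT RA was the highest group for nearly every member once KO RA replicate 3 was left out. Among the 88 tested members the mean level was highest in WT RA for 81, in KO NO for 5, in WT NO for 2 and in KO RA for 0, and it was lowest in KO RA for 53 and in KO NO for 22. The most frequent order, in 37 members, was WT RA, then WT NO, KO NO and KO RA. With that library in the mean, KO RA was the highest group for 54 members and WT RA for 30, and the most frequent order, in 34 members, began with KO RA. Group medians over all 12 libraries put WT RA highest for 82. Without TMM factors, WT RA was highest for 44 and KO RA for 26 with 12 libraries. Without TMM factors and KO RA replicate 3, WT RA was highest for 65, and the lowest was KO NO for 33 and KO RA for 28. The order found in 37 members then held for 11. Of 83 members above 100 CPM on average, the median log2 ratio to the WT NO mean was 0.73, 0.44 and 0.65 in the WT RA libraries, −0.07, 0.02 and −0.32 in KO NO, −0.25 and −0.17 in KO RA replicates 1 and 2, and 2.00 in KO RA replicate 3. WT NO overlapped with KO NO over their libraries, and KO NO with KO RA, while WT RA overlapped none of them in this median except through KO RA replicate 3.

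**Figure D2:**
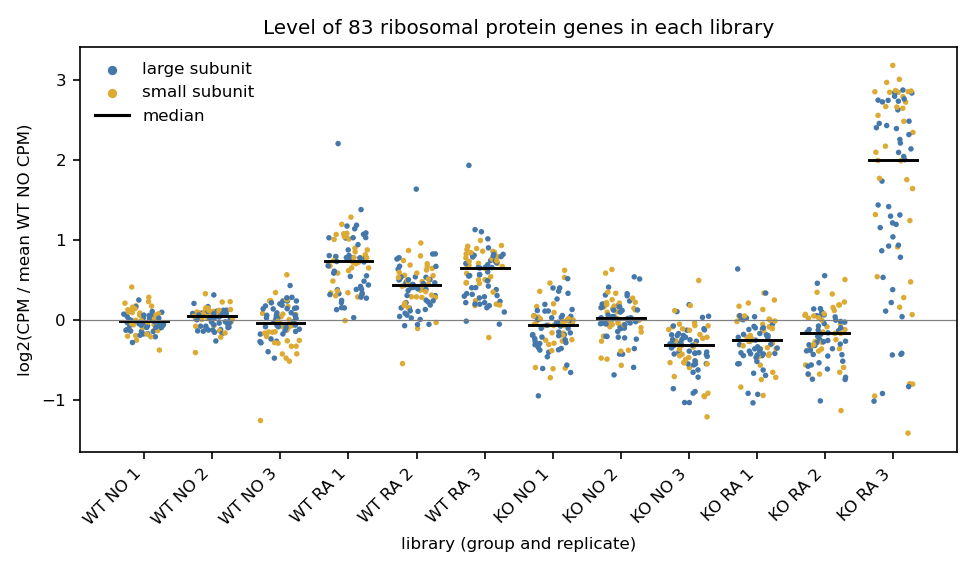
Each point is 1 of 83 ribosomal protein genes above 100 CPM on average, plotted for each library as log2 of its CPM over its mean in WT NO, with blue for the large and yellow for the small subunit and a black line at the median. WT RA libraries have medians of 0.44 to 0.73, and KO RA replicate 3 spreads from −1.42 to 3.18.

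The first comparison asked how these genes differ with RA in WT cells. Most members were higher with RA: the median log2 fold change of the 88 members was 0.59 with either set of libraries, 1.51 on the linear scale with 11, against a median of −0.01 over all genes with 12 libraries. With 11 libraries 49 of 88 members rose and 0 fell, against 5.65% of all genes called higher and 5.13% called lower. The 49 were 24 of 50 large subunit genes and 25 of 38 small subunit genes, with subunit medians of 0.56 and 0.63. With 12 libraries 0 members passed (0.406% of all genes did, in either direction), although 83 of 88 had a positive fold change. At an unadjusted p under 0.05, 4 members were higher and 0 lower, against 2071 of 16502 genes in either direction. With 12 libraries limma-voom called 57 higher and 1 lower, and DESeq2 called 2 higher, but the share of all genes that they called was not counted. The 11-library count of 49 became 20 without WT RA replicate 1, 25 without WT RA replicate 3, 28 without WT NO replicate 1, 32 without WT NO replicate 2 and 24 with the WT libraries fitted alone. KO RA replicate 3 is in neither group of this comparison. It enters the 12-library fit through the gene filter, the scaling and the spread, which all libraries of a fit share.

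The most clearly raised member was Rpl22l1 (ENSMUSG00000039221, chromosome 3, 28859585 to 28861573), which encodes a paralog of Rpl22. Its level was 107, 128 and 74.0 CPM in WT NO, 475, 320.1 and 393 CPM in WT RA, 81.2, 88.7 and 50.4 CPM in KO NO, and 160.3, 151 and 755 CPM in KO RA. Every RA library lay above every NO library in both genotypes, and KO RA replicate 3 was the highest of all. The values for WT RA against WT NO were a log2 fold change of 1.95, SE 0.249, adjusted p = 0.00272 with 11 libraries and 1.94 with adjusted p = 0.188 with 12. Rps29 (ENSMUSG00000034892, chromosome 12, 69204495 to 69205960), a small zinc-binding protein of the 40S head, was next. It had 2118, 2465 and 2391 CPM in WT NO, 4869.5, 4524 and 4213 CPM in WT RA, 2264, 2171 and 1724 CPM in KO NO, and 1708, 1831 and 16069 CPM in KO RA. All 3 WT RA libraries exceeded all WT NO libraries (log2 fold change of 0.97, SE 0.131, adjusted p = 0.00309), and KO RA replicates 1 and 2 were below every WT library.

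Rpl3 (ENSMUSG00000060036, chromosome 15, 79961825 to 79976069), a large subunit protein near the peptidyl transferase centre, had the tightest WT RA values of the leading members. They were 1483, 1503 and 1499 CPM, against 863, 887 and 800.3 CPM in WT NO (log2 fold change of 0.82, SE 0.115, adjusted p = 0.00353). For Rpl13a (ENSMUSG00000074129, chromosome 7, 44774982 to 44778263), known also for translational silencing of inflammatory mRNAs, the log2 fold change was 1.12 (adjusted p = 0.00537), the largest rise after Rpl22l1. For Rpl10a, which forms part of the L1 stalk, it was 0.98 (adjusted p = 0.00414). Among other well-known members, Rps19 rose by 0.92, Rpl5 by 0.68 and Rpl11 by 0.58 on the log2 scale with 11 libraries (adjusted p = 0.00872, 0.0232 and 0.0265). Rps14 had 0.62 and Rps3 0.74 (adjusted p = 0.0476 and 0.0178).

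Some well-known members did not pass. Rps6, the main substrate of S6 kinase in the ribosome, had a log2 fold change of 0.33 (adjusted p = 0.180), Rpl38 of 0.41 (adjusted p = 0.0806), Rack1, the 40S scaffold protein, of 0.24 (adjusted p = 0.356) and Rplp2 of 0.24 (adjusted p = 0.377). The stalk base protein Rplp0 (ENSMUSG00000067274, chromosome 5, 115694515 to 115701793) had 3514, 3419 and 3220.0 CPM in WT NO, 3697, 3254 and 3259.6 CPM in WT RA, 4458, 4198 and 3456 CPM in KO NO, and 2529, 2711 and 3931 CPM in KO RA. Its WT values overlapped between treatments (0.01, adjusted p = 0.965), unlike those of Rplp1, which binds to it (0.79, adjusted p = 0.0246). Only 4 tested members had a negative value, namely Rpl7l1, Rps27l, Rps4l and Rpl6l, and none of the 4 passed.

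**Figure D3:**
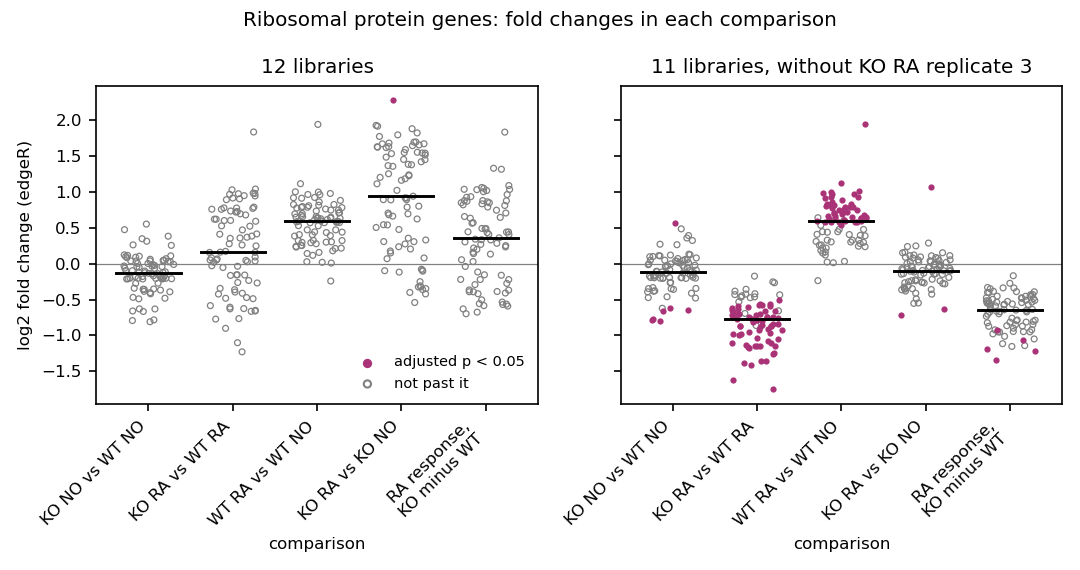
Log2 fold change from edgeR of the 83 ribosomal protein genes above 100 CPM in the 5 comparisons, with 12 libraries on the left and without KO RA replicate 3 on the right, filled where the adjusted p is below 0.05, with a black line at the median. Without that library the WT RA against WT NO points lie mostly above 0 and the KO RA against WT RA points all lie below 0.

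The next comparison asked how the KO differs from WT without RA. Most members differed little: in KO NO relative to WT NO the median log2 fold change came to −0.13 with 12 libraries and −0.12 with 11, against −0.02 and −0.01 over all genes. With 11 libraries 6 members were lower (Rpl7, Rps23, Rpl32, Rps7, Rpl31 and Rps10) and 1 was higher (Rpsa), which is 6.82% and 1.14% of the tested members against 4.35% and 4.43% of all genes, so that the lower calls were slightly above and the higher call below the share over all genes. With 12 libraries 0 passed (1.14% of all genes did). At an unadjusted p under 0.05 there were 2 above and 1 below, against 2011 of 16502 genes in either direction. The 6 lower calls became 3 without WT NO replicate 2 and 2 without KO NO replicate 1 or 3, and the call for Rpsa was lost in 8 of the fits that left out a library. As in the comparison within WT cells, KO RA replicate 3 is in neither group.

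Rps23 (ENSMUSG00000049517, chromosome 13, 91071077 to 91085586), a protein of the 40S decoding centre, fell most among those called. Its level was 1282, 1274 and 1095 CPM in WT NO, 2084, 1875 and 2018 CPM in WT RA, 737, 821 and 525 CPM in KO NO, and 632, 554 and 4147 CPM in KO RA. All KO NO libraries were below all WT NO libraries (log2 fold change of −0.80, SE 0.157, adjusted p = 0.0135 with 11 libraries, and −0.81 with adjusted p = 0.726 with 12). Rpl7 (ENSMUSG00000043716, chromosome 1, 16169408 to 16174886) had 2049, 1951 and 2585 CPM in WT NO, 3711, 2909.7 and 3437 CPM in WT RA, 1136, 1454 and 1209 CPM in KO NO, and 1382, 1468 and 11599.8 CPM in KO RA, again with no overlap between KO NO and WT NO (log2 fold change of −0.79, SE 0.152, adjusted p = 0.0126, against an adjusted p = 0.768 with 12). Rpl32, Rps7, Rpl31 and Rps10 had log2 fold changes of −0.78, −0.66, −0.62 and −0.65 (adjusted p = 0.0149, 0.0243, 0.0399 and 0.0474).

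Rpsa (ENSMUSG00000032518, chromosome 9, 119956755 to 119962787), a 40S protein also known as the laminin receptor, moved the other way. It was at 2967, 2966 and 3848 CPM in WT NO, 5638, 4213 and 4873 CPM in WT RA, 4706, 5045 and 4585 CPM in KO NO, and 4114, 4621 and 20381 CPM in KO RA. The KO NO libraries were all above the WT NO libraries (log2 fold change of 0.56, SE 0.149, adjusted p = 0.0428 with 11, and 0.55 with adjusted p = 0.810 with 12). Measured against the mean log2 level of the other members in the same library, a quantity that TMM scaling does not touch, Rpsa was higher in every KO library than in any WT library: from 1.76 to 2.24 in KO and from 0.98 to 1.41 in WT. On that relative scale Rplp0 was at 1.50 to 1.70 in KO NO and 1.16 to 1.26 in WT NO.

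After RA the KO and WT cells stood further apart, and here the result turned on KO RA replicate 3. Without it 66 of 88 members were lower in KO RA than in WT RA and 0 were higher (75% of those tested, against 5.44% of all genes called lower and 4.42% higher), and 86 of 88 fold changes were negative, with a median of −0.75. The calls fell on 42 of 50 large and 24 of 38 small subunit genes, with medians of −0.78 and −0.72. With all 12 libraries 0 members passed (1.24% of all genes did, in either direction), 56 of 88 fold changes were positive and the median was 0.17, against 0.09 over all genes. On the same 12 libraries limma-voom with quality weights gave a median of −0.73 and called 71 members lower, and the DESeq2 Wald test called 7 lower. The share of all genes that these methods called was not counted. Quality weights count a library less where it departs from its group. The limma-voom result therefore does not stand apart from leaving replicate 3 out. At an unadjusted p under 0.05, edgeR with 12 libraries had 2 members higher and 8 lower, against 2899 of 16502 genes in either direction. With a further library left out of the 11, 7 members passed without KO RA replicate 1, 14 without KO RA replicate 2, 27 without WT RA replicate 1 and 32 without WT RA replicate 3. In the first pair of these KO RA is a single library, assumed to vary like the other groups.

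Without replicate 3 the 5 members with the smallest adjusted p came from both subunits. Rps23 had a log2 fold change of −1.75, SE 0.187, adjusted p = 0.000952, since KO RA replicates 1 and 2 were at 632 and 554 CPM and replicate 3 at 4147 CPM, against 1875 to 2084 CPM in WT RA. With 12 libraries its value was −0.16 (adjusted p = 0.919). Rps29 followed at −1.36 (adjusted p = 0.00124), then Rpl10a at −1.41, Rps28 at −1.17 and Rpl36 at −1.63 (adjusted p = 0.00144, 0.00152 and 0.00208). Rps28 (ENSMUSG00000067288, chromosome 17, 34034199 to 34043536) had 4026, 4182 and 3941 CPM in WT NO, 6071, 5903 and 5547 CPM in WT RA, 3370.2, 3366 and 2675 CPM in KO NO, and 2459, 2739 and 5886 CPM in KO RA. Its WT RA libraries overlapped with KO RA replicate 3 and with none of the other KO libraries.

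Among the members that did not pass were several of the proteins named by role. Rpsa had a log2 fold change of −0.17 (adjusted p = 0.548), Rplp2 of −0.27 (adjusted p = 0.375), Rplp0 of −0.38 (adjusted p = 0.107), Rps6 of −0.47 (adjusted p = 0.103) and Rack1 of −0.53 (adjusted p = 0.0872). Fau, which is made as a fusion with a ubiquitin-like protein, passed with −0.62 (adjusted p = 0.0447), as did Rplp1 with −0.98 (adjusted p = 0.0189).

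In KO cells there was no shared rise with RA without that library. The median log2 fold change of KO RA against KO NO was −0.10, close to −0.02 over all genes, with 1 member higher and 2 lower (1.14% and 2.27% of the members tested, below the 8.48% and 7.54% of all genes). The member that rose was Rpl22l1 (log2 fold change of 1.07, SE 0.266, adjusted p = 0.0210). Those that fell were Rplp0 (log2 fold change of −0.63, SE 0.139, adjusted p = 0.0125) and Rps27l, a paralog of Rps27 (log2 fold change of −0.71, SE 0.188, adjusted p = 0.0282). The call for Rpl22l1 was lost without KO NO replicate 3, KO RA replicate 1 or KO RA replicate 2, and the 2 lower calls became 8, 0 and 0 in these fits, 4 without WT NO replicate 3, and 1 without WT RA replicate 3, KO NO replicate 1 or KO NO replicate 2. With 12 libraries the median was 0.90 against 0.11 over all genes, and Rpl22l1 alone passed (log2 fold change of 2.28, SE 0.578, adjusted p = 0.0455, with 3.89% of all genes called higher and 5.48% in either direction). At an unadjusted p under 0.05, 31 of 88 members were then higher and 0 lower, against 4163 of 16502 genes in either direction. Rplp0 had −0.40 and Rps27l 1.59 in that fit (adjusted p = 0.384 and 0.234), the latter in the other direction.

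The difference between the RA responses of KO and WT was tested as an interaction. Without KO RA replicate 3 all 88 members had a negative value, with a median of −0.64, and 5 passed, all lower in KO, or 5.68% against 0.537% of all genes called lower and 0.802% called higher. They were Rps29 (−1.19, adjusted p = 0.0274), Rpl3 (−0.92, 0.0359), Rpl10a (−1.06, 0.0430), Rpl41 (−1.21, 0.0447) and Rplp1 (−1.34, 0.0484). With 12 libraries the median was 0.35 and 0 members passed, 0 of them also at an unadjusted p under 0.05. The 5 calls became 0 in 7 of the fits that left out a further library, 1 without WT NO replicate 2, 13 without KO NO replicate 3 and 22 without WT NO replicate 3. No gene of the whole table passed with 12 libraries (0%), and 1423 had an unadjusted p under 0.05.

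Paralogs were compared with their partners as the ratio of levels within a library, which no scaling factor touches. Rpl22 (ENSMUSG00000028936, chromosome 4, 152410150 to 152418542) and Rpl22l1 encode proteins that are 70.3% identical. The ratio of Rpl22l1 to Rpl22 was 12.3, 14.7 and 7.04% in WT NO, 29.7, 30.2 and 28.5% in WT RA, 9.38, 9.67 and 7.19% in KO NO, and 23.9, 26.0 and 14.5% in KO RA. It was higher with RA in both genotypes, and only the WT NO replicate 2 value of 14.7% lay above the lowest RA value, 14.5% in KO RA replicate 3. The mean log2 difference between RA and NO within genotypes was 1.35 (two-sided exact permutation test within genotypes, p = 0.005, the smallest that its 400 reassignments give, adjusted p = 0.0267 over the 8 ratio tests run). Without KO RA replicate 3 it was 1.48, with 1.52 in KO and 1.44 in WT (exact permutation p = 0.005). For KO against WT it was −0.41 (exact permutation p = 0.09).

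Rps27l and Rps27, the pair of 40S proteins that are 96.4% identical, showed the opposite direction. Rps27l held 7.57, 8.10 and 4.67% in WT NO, 2.87, 2.48 and 3.27% in WT RA, 6.79, 7.99 and 8.42% in KO NO, and 4.82, 4.45 and 7.15% in KO RA of the Rps27 level. The ratio differed with RA by a mean of −0.87 on the log2 scale (exact permutation p = 0.01, adjusted p = 0.0267). Without KO RA replicate 3 this difference was −0.97 (p = 0.005 in the same exact permutation test). KO RA replicate 3 lay within the KO NO range. KO was above WT by 0.57 with 12 libraries (exact permutation p = 0.03, adjusted p = 0.048) and by 0.46 with 11 (exact permutation p = 0.045, adjusted p = 0.0667). By the unadjusted p this difference no longer passed without WT NO replicate 3, WT RA replicate 2 or KO NO replicate 3. The CPM of Rps27l itself was 276, 324 and 231 CPM in WT NO, 275, 189.5 and 238 CPM in WT RA, 272, 316 and 244 CPM in KO NO, and 165, 176 and 2166 CPM in KO RA. So in WT cells the ratio fell while the level of Rps27 rose (0.97, adjusted p = 0.0106) and that of Rps27l had −0.24 (adjusted p = 0.393).

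Rpl7l1, a distant paralog of Rpl7 with 40.7% protein identity that works in pre-ribosome assembly, also fell against its partner. Its ratio to Rpl7 was 5.80, 5.99 and 2.43% in WT NO, 1.88, 2.55 and 2.16% in WT RA, 6.96, 5.55 and 5.76% in KO NO, and 3.48, 3.46 and 1.44% in KO RA. The mean difference with RA was −1.12 on the log2 scale (exact permutation p = 0.01, adjusted p = 0.0267). Without KO RA replicate 3 it was −0.91 (exact permutation p = 0.01, adjusted p = 0.02). WT NO replicate 3 lay within the WT RA range of this ratio and below WT NO replicates 1 and 2, as it also was for Rpl22l1 and Rps27l. Rpl36al, which is not a member by the rule and encodes a protein 100% identical to that of Rpl36a, held 41.9, 39.0 and 38.5% in WT NO, 24.5, 27.5 and 25.4% in WT RA, 30.4, 30.9 and 31.7% in KO NO, and 29.4, 29.0 and 32.1% in KO RA of the Rpl36a level. Its difference with RA was −0.62 in WT and −0.04 in KO (mean −0.33, exact permutation p = 0.025, adjusted p = 0.048), and whether this difference varied between genotypes was not tested. Without KO RA replicate 3 the mean was −0.36 (exact permutation p = 0.005, adjusted p = 0.0133). The paralogs Rpl39l, Rpl10l and Rpl3l were near or at 0: Rpl39l had 0 counts in all 12 libraries, Rpl10l 1.67 counts in WT NO replicate 2 alone, and Rpl3l, known from muscle, 3.27 counts in WT NO replicate 1 and 1.72 in KO NO replicate 3. A value of 0 allows up to 3 reads per library, by counting error only. The printed counts are scaled from length-corrected abundances, so 1 read need not equal 1 count.

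**Figure D4:**
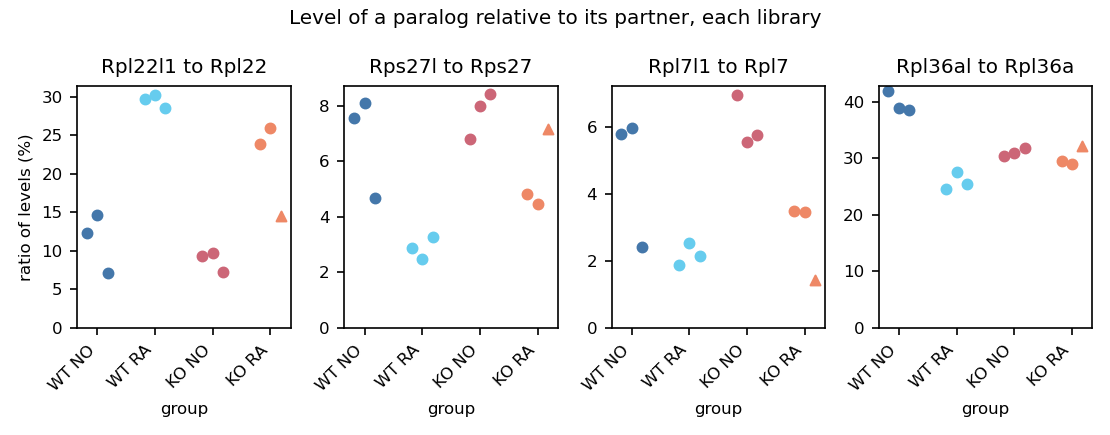
Level of a paralog as a percentage of its partner's level in the same library, for 4 pairs, with 1 point per library and a triangle for KO RA replicate 3, and no error bar. Rpl22l1 is at 28.5% to 30.2% of Rpl22 in WT RA against 7.04% to 14.7% in WT NO, while Rps27l and Rpl7l1 are lower with RA in WT.

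KO RA replicate 3 did not only hold more ribosomal protein counts but a different mixture of them. Across 86 members detected in every library, the SD of a member's relative level around its WT NO mean was 1.25 (log2) in that library and 0.135 to 0.382 in the other 11. Relative to the mean of the members, Rps2 was at −2.47 there against −0.06 and 0.02 in KO RA replicates 1 and 2. Rps13 was at −2.51 against −0.09 and −0.08, and Rpl14 at −2.53 against −0.13 and −0.03. Rps24 was at 3.04 against 1.96 and 1.91, and Rps27 at 2.81 against 1.51 and 1.63. Over 81 members above 100 CPM with a coding sequence in the annotation, the change of their share of counts in that library correlated with coding GC content (Spearman's rho = −0.432, across genes, which share the library and are not replicates) and with coding length (rho = −0.402). The 27 members of lowest GC content (39.7% to 50.6%) had a median log2 change of 1.08 and the 27 of highest (54.7% to 61.6%) of −0.18. For the fitted fold changes of the same 81 members with 11 libraries, rho with coding length was 0.403 in KO RA against WT RA, −0.259 in WT RA against WT NO, −0.035 in KO RA against KO NO, 0.171 in KO NO against WT NO and 0.241 for the difference of the RA responses. With coding GC content it was −0.346 in KO RA against KO NO and between −0.16 and 0.154 in the other 4.

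Members on chromosomes 13 and 17 were set apart after the chromosome medians of all genes had been seen. All 7 tested members on chromosome 17 (Rpl10a, Rpl36, Rpl7l1, Rps10, Rps18, Rps2 and Rps28) had negative values for KO NO relative to WT NO with 11 libraries, from −0.65 to −0.35 with a median of −0.39, whereas the 79 members outside both chromosomes had a median of −0.11. The other genes moved alike there: 825 genes of chromosome 17 had a median of −0.46 and 676 of chromosome 13 of −0.36, while the medians of the 18 other chromosomes ran from −0.13 to 0.18. In KO RA against WT RA the 7 members had a median of −1.17, the 79 a median of −0.74, and the other genes of chromosome 17 a median of −0.49. Rps23 lies on chromosome 13, as does Rps3a3, which had 0.05 and −0.47 in these comparisons. Of the 5 members with the smallest adjusted p for KO RA against WT RA, 4 (Rps23, Rpl10a, Rps28 and Rpl36) are on these chromosomes. For WT RA against WT NO the 7 members had a median of 0.53 and the 79 of 0.59, and the other genes of chromosome 17 had −0.01. The part of chromosome position in the KO differences was not tested.

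**Figure D5:**
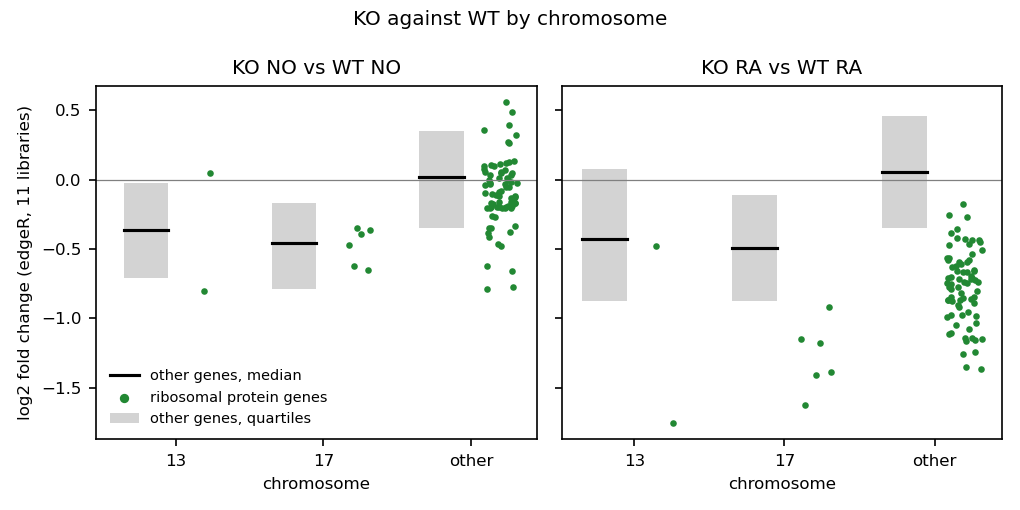
Log2 fold change of KO against WT with 11 libraries, without RA on the left and after RA on the right, for genes of chromosomes 13, 17 and all others; grey bars give the quartiles and the black line the median of genes that are not ribosomal protein genes, and each green point is a ribosomal protein gene above 100 CPM. On chromosome 17 the other genes have medians of −0.46 and −0.49.

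Genes that act with the ribosome were read from lists chosen with earlier results of these data known. Of 19 elongation factors and other TOP mRNAs, 6 rose and 0 fell in WT RA against WT NO with 11 libraries. Of all genes, 5.65% rose and 5.13% fell. The median of the 19 was 0.34 against 0.00 over all genes. The 6 that rose were led by Eif4a2 (1.04), Eif4b (0.98) and Tpt1 (0.75), with adjusted p of 0.00162, 0.00760 and 0.0128. Of the same list 9 were lower in KO RA than in WT RA (median −0.52), against 5.44% of all genes. Btf3 led them (−1.21, adjusted p = 0.0117). It was also the single one lower in KO NO (−0.83, adjusted p = 0.0288), against 4.35% of all genes. In KO RA against KO NO 0 of 19 passed, against 8.48% of all genes called higher and 7.54% lower. Eef1a1, the elongation factor that brings tRNA to the ribosome, was called higher in WT RA (0.61, adjusted p = 0.0167). With 12 libraries 0 of the 19 passed in any of these comparisons. Among the promoters matched, 4 of 12 of this list had a run of 8 or more C and T (33.33%).

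Genes that build the ribosome were lower with RA. Of 35 ribosome biogenesis genes, 16 fell and 0 rose in WT RA against WT NO with 11 libraries (median −0.40), against 5.13% and 5.65% of all genes. The lowest adjusted p were those of Polr1b (−1.14, adjusted p = 0.00225) and Polr1a (−1.07, 0.00299), subunits of RNA polymerase I, which transcribes ribosomal RNA, and of Bop1 (−0.78, 0.00381), a 60S assembly factor. In KO RA against KO NO 18 fell and 0 rose (median −0.57), against 7.54% and 8.48% of all genes. Among the 18 were Bop1 (−0.97), Heatr1 (−1.45) and Nop56 (−0.73), with adjusted p of 0.00111, 0.00130 and 0.00403. With 12 libraries 0 passed in WT and 4 fell in KO, with medians of −0.40 and −0.45. Of all genes, 0.406% and 5.48% passed there, in either direction. In KO RA against WT RA 3 of 35 were lower with 11 libraries (5.44% of all genes). In KO NO against WT NO 1 was higher and 1 lower (4.43% and 4.35% of all genes). None of 27 matched promoters of this list had the run of C and T. The counts of members and of this list share the WT NO and KO NO libraries.

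Regulators were read in the same way. Of 15 genes of mTOR signalling and of the Myc family, Eif4ebp2 (−0.73) and Larp1 (−0.56), both repressors of translation, fell in WT RA against WT NO (adjusted p = 0.00459 and 0.0162). In KO RA against KO NO Mycn rose by 1.20 while Mtor and Eif4ebp1 had −0.93 and −0.95 (adjusted p = 0.00226, 0.00336 and 0.00716). These are 2 of 15 lower in each comparison, against 5.13% and 7.54% of all genes, and 1 of 15 higher in KO, against 8.48%. With 12 libraries 0 passed in WT and 1 was lower in KO. KO and WT differed significantly for 0 of 15 in either treatment with 11 or 12 libraries. Of the 13 mitochondrially encoded genes, 4 were higher in WT RA against WT NO and 4 lower in KO RA against WT RA with 11 libraries (medians 0.52 and −0.72). Of all genes, 5.65% and 5.44% were called in those directions. With 12 libraries 0 passed in either, the medians were 0.51 and 0.77, and all 13 had positive values in KO RA against WT RA. Their part in the ribosomal protein values was not tested.

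Markers of other cells also changed with RA. The summed level of 5 mesenchymal markers was 19.5 to 53.0 CPM in WT NO, 77.8 to 84.8 CPM in WT RA, 32.0 to 40.0 CPM in KO NO and 83.4 to 201 CPM in KO RA, with 4 of 5 called higher in each RA comparison with 11 libraries. The 5 endothelial markers summed to 0.591 to 2.81 CPM in the other groups and to 6.14 to 13.3 CPM in KO RA, and the 5 neuron markers to 67.9 to 105 CPM without and 138 to 203 CPM with RA, with 2 of 5 called higher in each RA comparison. Of all genes, 5.65% were called higher in WT RA against WT NO and 8.48% in KO RA against KO NO with 11 libraries. The 5 blood markers were at or near 0, at most 0.541 CPM in sum, and none was tested. The part of these markers in the ribosomal protein values was not tested.

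Calls were also counted by the run of C and T. Of the 63 tested members with a matched promoter, 11 of 24 with such a run and 24 of 39 without rose in WT RA against WT NO (medians 0.46 and 0.60), and 18 of 24 and 31 of 39 were lower in KO RA than in WT RA (medians −0.77 and −0.74), with 11 libraries. Of all genes, 5.65% rose and 5.44% were lower in these comparisons. The counts of members come from annotated starts, and the difference between those with and without the run was not tested.

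Values of 5 members are uncertain because they are annotated pseudogenes, single-exon copies whose reads can be shared with a parent gene. Rps12l1 is 100% identical to Rps12 over 384 aligned bases. It had 0 counts in all 6 WT libraries and in KO NO replicate 1 and KO RA replicate 2, and 899, 719, 285 and 589 counts in the other 4 KO libraries. Rps3a2 and Rps3a3 are 99.5% and 99.0% identical to the coding sequence of Rps3a1, Rpl6l is 98.7% identical to that of Rpl6, and Rpl32l 96.0% to that of Rpl32. Rps4l, whose protein is 93.2% identical to that of Rps4x, had 140 counts in KO NO replicate 1 and at most 16.1 elsewhere. The 322 rows named as ribosomal protein pseudogenes held a further 1.38% to 2.00% of the counts of a library.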

How the data were processed

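mRNA of 12 NE-4C cultures was measured, 3 each of WT NO, WT RA, KO NO and KO RA. The deposited values are estimated counts per gene, which the authors made with the default nf-core/rnaseq workflow on GRCm39, scaled from length-corrected abundances so that they sum to the library totals of 17370049 to 30738694. They were rounded to whole numbers. Genes with low counts were removed with filterByExpr, TMM factors were computed and edgeR 4.0.16 (R 4.3.3) fitted the robust quasi-likelihood model with 1 coefficient per group, with Benjamini-Hochberg adjustment over all genes and a threshold of 0.05. Values per library were compared by two-sided exact permutation tests. All fits were repeated without KO RA replicate 3, which was set apart because of its composition. The scripts were tested on simulated data in which 100 genes changed 2-fold and 100 changed 4-fold in KO RA. Against WT RA, 1% and 33% of them were called with 12 libraries, and 23% and 65% with 11. A fit without calls therefore does not show that levels were equal. Alternatives were DESeq2 1.42.0, limma 3.58.1 (voom with quality weights), other size factors and filters, fits of only the compared groups, a replicate block and each library left out. Coding sequences came from the GENCODE annotation of GRCm39 and start sites from RefSeq (GRCm38.p6), read with pysam 0.24.0 and Biopython 1.88.

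The members and the gene lists (TOP partners and elongation factors, ribosome biogenesis, mTOR and Myc regulators, mitochondrially encoded genes and markers of neural progenitors, neurons, mesenchyme, endothelium and blood) were chosen with earlier results of these data known. Named genes are the paralog pairs, the stalk and surface proteins, members known for a role, the members with the smallest adjusted p in each comparison (up to 5 per direction), those with the highest and lowest mean level or the largest range of relative level (3 each) and, per list and comparison, up to 3 called genes. Rps10, Rps13, Rpl14 and Rpl23a outside these ranks were named after their values were seen. Some items that this rule names are not reported here. Replicates came from separate passages of the same lines, so p-values measure the spread between cultures. Correlations of deviations between libraries with the same replicate number ran from −0.167 to 0.068, so the numbers were not taken to pair the cultures. Intervals and floors cover counting error only.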

Additional observations from a re-analysis of the deposited data

Results flagged for a closer look

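The RA response of 5 members differed between KO and WT in the interaction test of edgeR with 11 libraries, each lower in KO. The differences in log2 fold change were −1.19 for Rps29, −0.92 for Rpl3, −1.06 for Rpl10a, −1.21 for Rpl41 and −1.34 for Rplp1 (adjusted p = 0.0274, 0.0359, 0.0430, 0.0447 and 0.0484). With KO RA replicate 3 included none of the 5 passed. With 1 library left out of the 12, the values ran from −1.19 to 1.25 for Rps29, from −0.92 to 0.043 for Rpl3, from −1.06 to 0.93 for Rpl10a, from −1.21 to 0.60 for Rpl41 and from −1.34 to 0.97 for Rplp1, and the lowest of each is the value without KO RA replicate 3. The part of that library's composition in these differences was not tested.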

How the results depend on the processing

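With all 12 libraries, limma-voom with quality weights called 1 higher and 13 lower members for KO NO against WT NO, 71 lower for KO RA against WT RA (median −0.73), 57 higher and 1 lower for WT RA against WT NO, 1 higher and 2 lower for KO RA against KO NO (median −0.024) and 9 lower for the difference of the RA responses (median −0.59). The DESeq2 Wald test called 1 lower, 7 lower, 2 higher and 4 higher in the first 4 of these, and fits of only the groups compared 1 lower for KO NO against WT NO, 24 higher for WT RA against WT NO and 0 for KO RA against KO NO. Without KO RA replicate 3, DESeq2 called 3 higher and 13 lower members for KO NO against WT NO, 1 higher and 74 lower for KO RA against WT RA, 60 higher for WT RA against WT NO, 1 higher and 10 lower for KO RA against KO NO and 47 lower for the difference, and limma-voom 1 higher and 16 lower for KO NO against WT NO, 79 lower for KO RA against WT RA, 63 higher and 1 lower for WT RA against WT NO, 1 higher and 3 lower for KO RA against KO NO and 36 lower for the difference. Fits of only the groups compared then gave 0 higher and 1 lower for KO NO against WT NO, 24 higher for WT RA against WT NO and 4 lower for KO RA against KO NO. The share of all genes called was counted for the main edgeR fits only, so the counts of the alternatives have none beside them. The 5 interaction calls became 2 with TMM factors taken without ribosomal protein and mitochondrial genes, 3 with no filter and 10 with at least 10 counts in every library. WT RA was the highest group for 30 members with 12 libraries, 82 by group medians, 81 without KO RA replicate 3, 65 without it and without TMM factors, and 82 without it with the other TMM factors. Shares without mitochondrially encoded genes were 22.1% in WT NO, 29.2% in WT RA and 21.4% in KO NO.

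The replicate numbers did not pair the cultures. With the replicate block, Rpl22l1 was lost for KO RA against KO NO with 12 libraries (0 called). Without KO RA replicate 3 the block gave 0 higher and 3 lower for KO NO against WT NO, 46 lower for KO RA against WT RA, 34 higher for WT RA against WT NO and 0 for the difference.

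Values with 12 libraries changed sign for Rpl22l1 in KO RA against WT RA (0.023 with DESeq2 size factors and 0.023 with the DESeq2 Wald test), Rps23 there (0.033 and 0.033), Rps27l in KO RA against KO NO (−0.61 with limma-voom), and in the difference of the RA responses for Rps29 (−1.10), Rpl10a (−0.93), Rpl41 (−1.08, and −0.080 with the block) and Rplp1 (−1.20), all with limma-voom. The cause was not tested.

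With 1 library left out of the 12, the calls ran from 0 to 1 higher and 0 to 6 lower for KO NO against WT NO, 0 to 66 lower for KO RA against WT RA, 0 to 49 higher for WT RA against WT NO, 0 to 2 higher and 0 to 2 lower for KO RA against KO NO and 0 to 5 lower for the difference, and the medians from −0.75 to 0.61 for KO RA against WT RA, −0.10 to 1.34 for KO RA against KO NO and −0.64 to 0.78 for the difference. Single values ran from −1.35 to 0.29 for Rpl22l1 and −1.75 to 0.35 for Rps23 in KO RA against WT RA, −0.71 to 2.17 for Rps27l in KO RA against KO NO, and, for the difference, −1.19 to 1.25 for Rps29, −0.92 to 0.043 for Rpl3, −1.06 to 0.93 for Rpl10a, −1.21 to 0.60 for Rpl41 and −1.34 to 0.97 for Rplp1. With a further library left out of the 11, the calls ran from 0 to 1 higher and 2 to 7 lower, 7 to 76 lower, 20 to 55 higher and 0 to 1 lower, 0 to 1 higher and 0 to 8 lower, and 0 to 22 lower in the same order.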
